A study of Mus musculus with 4 samples.

Results

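The 6 Zscan4 copies that the table lists under gene symbols (Zscan4a to Zscan4f) and 2 further genes of the two-cell embryo, Zfp352 and Tcstv3, were followed in the nascent RNA of mouse embryonic stem (ES) cells. They are 8 of the 54146 mouse genes in the table and were taken by their symbols. The study compared ES cells of genotype Supt3 WT with ES cells of genotype Supt3 KO, both kept in LIF and serum, with 2 libraries of each. LIF is the cytokine that maintains mouse ES cells in an undifferentiated state, and Supt3 encodes a core subunit of the transcriptional coactivator complex SAGA. RNA made while the cells were fed 4-thiouridine (4sU) was purified and sequenced (TT-seq), so that a count reports recent transcription over a gene rather than its stored RNA, and a spike-in of RNA from labelled S. pombe, a fission yeast, was added to all 4 libraries. The labels name neither the ES line, its strain nor the Supt3 allele, nor whether the KO is 1 clone. They also leave unsaid whether each library had its own culture, and the p-values therefore cover only the spread among these libraries, which may be technical.

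Zscan4 genes encode proteins with a SCAN domain and zinc fingers. They are switched on in the embryo at its two-cell stage, during the activation of its own genome. In ES cell cultures they are known for being transcribed in bursts, in a small and changing share of the cells, the two-cell-like cells, and for their part in keeping telomeres long. The double homeobox factor Dux activates Zscan4, Zfp352, Tcstv3 and many relatives, together with the long terminal repeats of MERVL elements. A bulk library averages over all cells, so that more cells with active Zscan4 and more Zscan4 RNA per active cell cannot be told apart here.

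The 6 copies lie on chromosome 7 of the mm10 mouse genome. Zscan4a spans chr7:10794242-10799057 on the minus strand, Zscan4b chr7:10900740-10905050 on the minus strand and Zscan4c chr7:11005745-11010547 on the plus strand. Zscan4d spans chr7:11161374-11166159 and Zscan4e chr7:11306378-11310682, both on the minus strand, and Zscan4f lies at chr7:11397915-11402318 on the plus strand. Zscan4c, Zscan4d and Zscan4f are known as the copies with a full-length reading frame, whereas the proteins of the others are truncated, and the table gives Zscan4a as an unprocessed pseudogene. With 3 copies named as pseudogenes, Zscan4-ps1, Zscan4-ps2 and Zscan4-ps3, which the table nevertheless gives as protein-coding, the cluster covers 819871 bases. Zfp352, a zinc finger gene, lies at chr4:90218820-90225702 on the plus strand. Tcstv3, a member of the small Tcstv family of two-cell-stage genes, lies at chr13:120316878-120318178 on the plus strand. None of the 8 genes overlaps another gene of the table.

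The copies are so alike that a short read often has no single origin. The longest annotated transcripts of the 6 copies were 94.1% to 97.8% identical in their 15 pairs, with a median of 97%. Of all 50-base stretches of its exons, Zscan4d had 50.4% and Zscan4a 36.4% that occur in no other annotated gene, against 14.5% in Zscan4c, 13.2% in Zscan4f, 11.0% in Zscan4e and 9.88% in Zscan4b. Zfp352 had 92.9% and Tcstv3 68.6%. Stretches of 100 bases gave 70.4% in Zscan4d and 18.5% in Zscan4e. The sources used here do not say how reads with several origins were treated or how long the reads were, so the level of a single copy is uncertain and the copies were also summed.

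The start regions show the same likeness. RefSeq promoters (GRCm38.p6, 250 bases before to 50 bases after the annotated start) were at hand for 5 of the 8 genes, and those of Zscan4b, Zscan4c, Zscan4d and Zscan4f were 95.3% to 99.3% identical in pairs. The sequences of Zscan4b (chr7:10905001-10905300, minus strand), of Zscan4d (chr7:11166099-11166398, minus strand) and of Zfp352 (chr4:90218570-90218869, plus strand) are printed 5′ to 3′ along the gene. They show 1 copy with a large difference between genotypes, the most counted copy, and the member outside the cluster whose groups were least separated. Capitals mark TATAAA in the Zscan4 copies and the repeat unit GACAACACAC in Zfp352.
Zscan4b: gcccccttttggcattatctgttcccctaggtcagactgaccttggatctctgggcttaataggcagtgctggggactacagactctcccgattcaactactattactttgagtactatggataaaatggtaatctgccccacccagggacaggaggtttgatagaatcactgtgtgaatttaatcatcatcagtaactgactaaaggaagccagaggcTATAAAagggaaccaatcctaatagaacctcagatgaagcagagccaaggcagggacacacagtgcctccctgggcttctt
Zscan4d: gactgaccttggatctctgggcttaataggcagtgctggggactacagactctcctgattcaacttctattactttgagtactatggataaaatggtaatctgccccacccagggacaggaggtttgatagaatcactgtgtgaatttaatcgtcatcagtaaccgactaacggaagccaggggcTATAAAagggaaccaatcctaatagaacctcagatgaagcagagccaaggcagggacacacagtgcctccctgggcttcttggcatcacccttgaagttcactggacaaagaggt
Zfp352: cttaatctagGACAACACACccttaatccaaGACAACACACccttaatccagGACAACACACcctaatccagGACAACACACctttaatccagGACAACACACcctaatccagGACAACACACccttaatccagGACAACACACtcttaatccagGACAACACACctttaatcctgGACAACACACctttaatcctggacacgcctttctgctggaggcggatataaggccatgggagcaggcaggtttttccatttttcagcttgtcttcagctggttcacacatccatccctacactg
TATAAA, the core of a TATA box, was found once in each of the 4 Zscan4 promoters on the gene's strand, beginning 31 bases before the annotated start in Zscan4b and Zscan4f, 54 bases in Zscan4c and 65 bases in Zscan4d. Of 32851 mouse promoters of the same length, 8.32% hold TATAAA on the gene's strand and 13.6% on either strand. The Zfp352 promoter held no exact TATAAA, but its printed sequence holds the similar word tataag. Only the exact word was searched, so whether Zfp352 has a TATA box was not tested. The Zfp352 promoter held 9 matches of GACAACACAC, its most frequent 10-base word, chosen after the sequence was seen. That word occurs at least once, on either strand, in 0.0517% of the promoters. TGCACAC, a motif described for ZSCAN4 itself, occurred in none of the 5 promoters (4.40% of all promoters, both strands). The motifs do not overlap each other in these windows.

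The WT libraries held 13.5 M and 19.4 M mouse counts (M, 1e6), and the KO libraries 13.1 M and 18.4 M, so replicate 1 of each genotype was the shallower. Mouse counts per S. pombe count were 3.25 and 5.60 in WT and 2.71 and 4.86 in KO, a gap between libraries of 1 genotype that is wider than that between genotypes. Levels are given as counts per 1e6 mouse counts (CPM) scaled by TMM, a method that assumes that most genes do not change. Supt3 itself measured 148 and 159 CPM in WT and 123 and 140 CPM in KO (log2 difference -0.22 ± 0.10 SE, adjusted p = 0.232 by edgeR's quasi-likelihood test); since the allele is not described, this whole-gene count neither shows nor contradicts the label KO. Of 11 ES cell markers 10 were tested, and edgeR called 1, Nanog, lower in KO (-0.53 ± 0.13, adjusted p = 0.0362), with 3 at an unadjusted p under 0.05. DESeq2 called 2 lower, and Esrrb (-0.79, adjusted p = 0.0682) and Zfp42 (-0.62, adjusted p = 0.0639) did not pass in edgeR. Pou5f1 measured 128 to 154 CPM, and Sox2, which lies within Sox2ot on the same strand, was listed at 0 counts in all 4 libraries.

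Transcription of the Zscan4 copies, summed, rose in the KO libraries. The sum held 332 and 292 counts in the WT libraries, replicates 1 and 2, and 751 and 597 counts in the KO libraries, or 24.3 and 15.3 CPM in WT and 55.7 and 33.5 CPM in KO. Both KO libraries lay above both WT libraries in CPM, as they did for 26.7% of tested genes. In each genotype the shallower library was the higher one. Means were 19.8 ± 6.41 CPM (SD, n = 2) in WT and 44.6 ± 15.7 CPM (SD, n = 2) in KO. On the log2 scale the difference was 1.18 ± 0.26 (SE) with an adjusted p of 0.0281 in edgeR's quasi-likelihood test, where the 6 copies entered the fit of the whole table as 1 row. DESeq2 gave 1.17 with an adjusted p of 0.134, so the call was not shared by that tool. Without KO replicate 1 the difference was 0.78, and without WT replicate 1 it was 1.53; the call held in both fits.

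Each copy was also compared on its own. Zscan4e measured 3.96 and 1.99 CPM in WT against 11.3 and 6.62 CPM in KO and rose by 1.62 ± 0.36 (SE) on the log2 scale (adjusted p = 0.0275). Zscan4b measured 1.76 and 0.889 CPM in WT against 4.67 and 3.09 CPM in KO and rose by 1.58 ± 0.38 (adjusted p = 0.0373). Zscan4d went from 8.57 and 6.74 CPM in WT to 21.5 and 11.6 CPM in KO and rose by 1.11 ± 0.28 (adjusted p = 0.0460). The KO libraries of these 3 copies lay above both WT libraries, as did those of 26.7% of tested genes. KO replicate 1 was the highest library each time. Zscan4e and Zscan4b are truncated copies, and Zscan4d is a full-length copy. The threshold was an adjusted p under 0.05, and 4.05% of the 16789 tested genes were higher in KO by it. The 3 called copies are the only called members of the 8, all 8 of which passed the filter on low counts. DESeq2 called 3 of the 7 to which it gave an adjusted p, against 3.73% of all such genes, and a fit with a term for the pair of shallower and deeper libraries called 5, against 13.2%. Without WT replicate 2 the adjusted p of Zscan4b was 0.157, and without KO replicate 1 the log2 difference of Zscan4d was 0.61.

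The other 3 copies stood higher in both KO libraries without passing the test. Zscan4a measured 4.98 and 2.98 CPM in WT and 8.90 and 6.28 CPM in KO (0.95 ± 0.29 on the log2 scale, adjusted p = 0.0843). Zscan4c, a full-length copy, measured 3.59 and 1.62 CPM in WT and 6.97 and 4.26 CPM in KO (1.14 ± 0.38, adjusted p = 0.115). Zscan4f, also full-length and the copy with the fewest counts, measured 1.47 and 1.05 CPM in WT and 2.37 and 1.68 CPM in KO (0.70 ± 0.35, adjusted p = 0.286). No copy had groups that overlapped in CPM, and both KO libraries were above both WT libraries in 26.7% of tested genes. Since the copies share much of their sequence, they are not 6 separate observations. Summing only the 3 full-length copies gave a log2 difference of 1.07 with an adjusted p of 0.0450 in edgeR's quasi-likelihood test. Zscan4d, which was called on its own, held the most counts of this sum in every library. Reads shared with the truncated copies may be among those counts, so this sum does not separate the 2 kinds of copy.

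**Figure D1:**
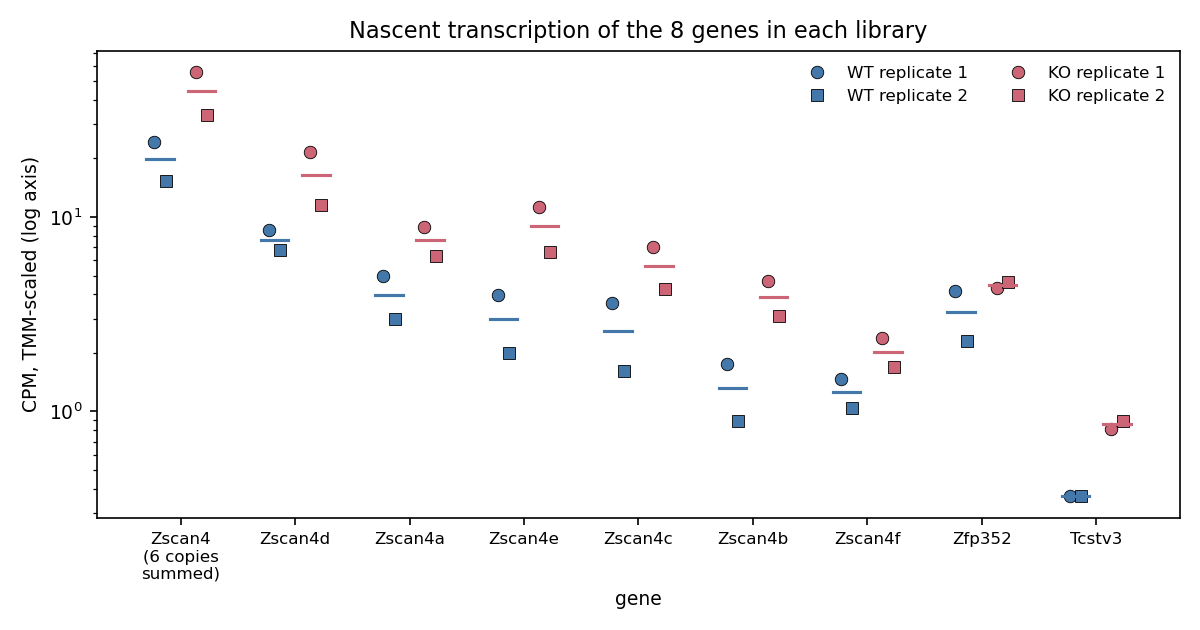
CPM (log axis) of the summed copies and of the 8 genes in each of the 4 libraries, WT in blue and KO in red, circles for replicate 1, squares for replicate 2 and a bar at each mean. The KO points lie above the WT points for every gene, by the smallest margin for Zfp352, whose WT replicate 1 is at 4.18 CPM and KO replicate 1 at 4.3 CPM. For Tcstv3 this order was set by the filter on low counts, which it passed only through the KO libraries.

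Levels can be compared between copies only per length of exon. On the scale of CPM per kb of exon, which takes exons as the counted feature, Zscan4d was the highest copy, with a mean level of 3.37 in WT and 7.28 in KO. Zscan4a (1.75 in WT, 3.33 in KO), Zscan4e (1.66 in WT, 4.99 in KO) and Zscan4c (1.15 in WT, 2.47 in KO) followed. Zscan4b (0.735 in WT, 2.15 in KO) and Zscan4f (0.641 in WT, 1.03 in KO) were lowest. On the same scale Zfp352 reached 1.42 in WT and 1.97 in KO, and Tcstv3 0.470 in WT and 1.1 in KO. Zscan4d is also the copy with the largest share of exon sequence of its own, and the part of read assignment in this order was not tested.

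The shares of the copies within their own sum are free of any scaling between libraries. Zscan4d took 35.2% and 44.2% of the summed counts in WT and 38.6% and 34.5% in KO, the largest share in every library. Its groups overlapped, as did those of Zscan4c, which took 14.8% and 10.6% in WT and 12.5% and 12.7% in KO. Zscan4e took 16.3% and 13.0% in WT and 20.2% and 19.8% in KO, and Zscan4b 7.23% and 5.82% in WT and 8.39% and 9.21% in KO, with both KO shares above both WT shares. Zscan4a (20.5% and 19.5% in WT, 16.0% and 18.8% in KO) and Zscan4f (6.02% and 6.85% in WT, 4.26% and 5.03% in KO) stood the other way round. These differences between shares were not tested, and their 95% Wilson intervals cover counting error only.

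The spike-in gave a level that does not rest on the other mouse genes. Per 1e6 S. pombe counts the summed copies measured 79.9 and 84.3 in WT and 155 and 158 in KO. On this scale the libraries of 1 genotype were close together, with means of 82.1 ± 3.13 (SD, n = 2) in WT and 156 ± 1.67 (SD, n = 2) in KO, a log2 difference of 0.93. An exact two-sided permutation test of 2 against 2 libraries gave p = 0.33, the smallest value that this design allows. Both KO libraries stood above both WT libraries per S. pombe count for all 6 copies, against 4.17% of tested genes. In CPM the same held for the 6 copies and for Zfp352, against 26.7% of tested genes. Tcstv3 was separated on both scales but is not counted here. It passed the filter on low counts only through the KO libraries and so had to be higher there in CPM. Since the genes were chosen with earlier results of these data known, these counts are a description. With spike-in scaling the edgeR fit of the sum gave 0.93 ± 0.67 (SE), with an adjusted p that rounds to 1.00, and 1 of all tested genes (0.00596%) was called higher in KO. The biological coefficient of variation of that fit was 0.363, against 0.0952 with TMM.

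**Figure D2:**
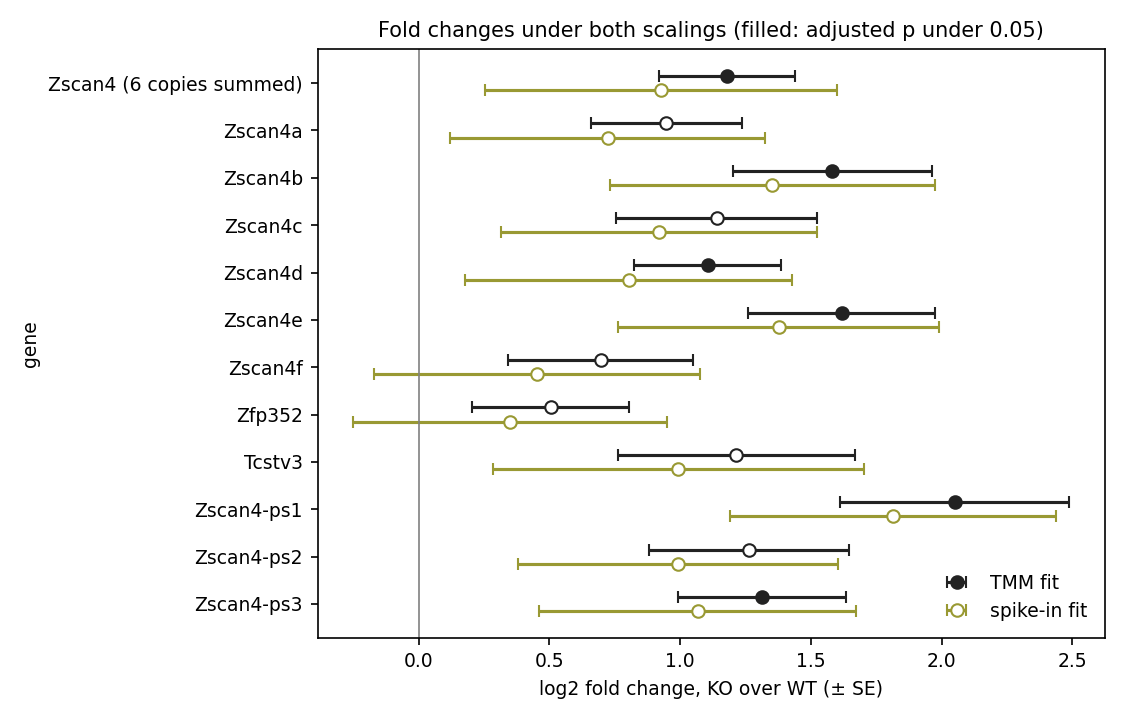
Log2 fold change (KO over WT, edgeR, bars are ± SE) of the summed copies, the 8 genes and the 3 further copies named as pseudogenes, with TMM scaling in black and spike-in scaling in olive, filled where the adjusted p is under 0.05. With TMM the values run from 0.51 for Zfp352 to 2.05 for Zscan4-ps1, and with spike-in scaling every value is lower, with wider bars and no filled point.

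The replicates of the sum thus moved apart on one scale and not on the other. From replicate 1 to replicate 2 the sum in CPM differed by -0.67 on the log2 scale in WT and by -0.73 in KO. Per S. pombe count the same differences were 0.08 in WT and 0.02 in KO, where all mouse counts together differed by 0.79 and 0.84. The KO minus WT difference of CPM was 1.20 between the shallower libraries and 1.13 between the deeper ones. Of all tested genes, 149 (0.887%) had CPM differences between replicates as low as those of the sum in both genotypes. The part of depth in these differences was not tested.

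**Figure D3:**
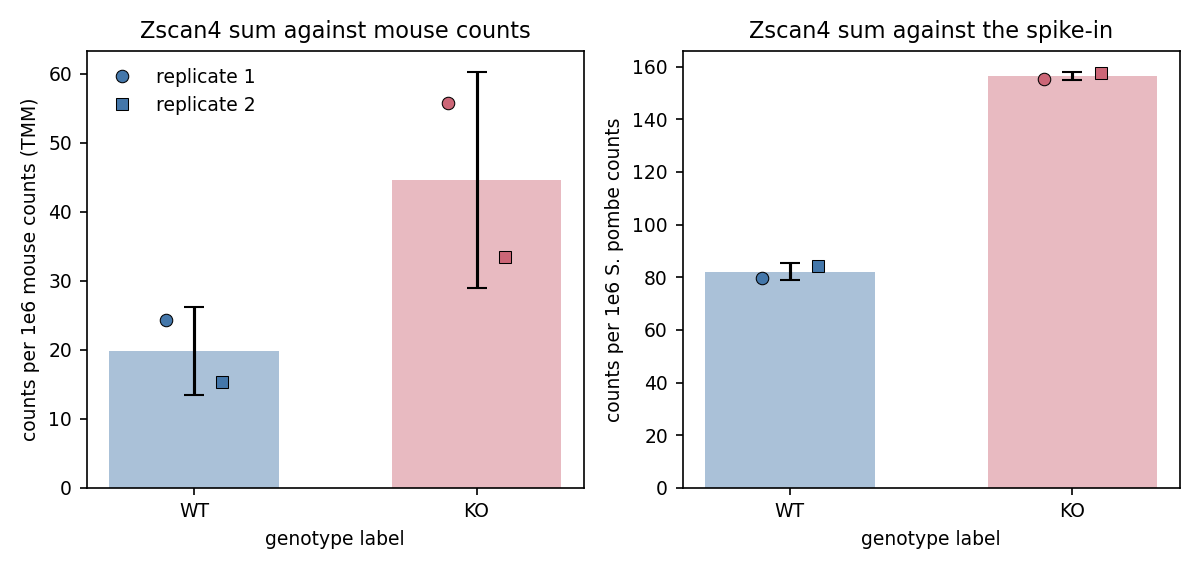
The summed Zscan4 copies in each library, in counts per 1e6 mouse counts (left) and per 1e6 S. pombe counts (right), both axes starting at 0. Left, the libraries of a genotype are apart (24.3 and 15.3 in WT, 55.7 and 33.5 in KO), and right, they are close (79.9 and 84.3 in WT, 155 and 158 in KO).

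Zfp352 and Tcstv3, which lie on other chromosomes, did not pass the test. Zfp352 held 57 and 44 counts in WT and 58 and 83 counts in KO, or 4.18 and 2.30 CPM in WT and 4.3 and 4.66 CPM in KO. The log2 difference was 0.51 ± 0.30 (SE, adjusted p = 0.369). It was 0.04 between the shallower libraries and 1.02 between the deeper ones, and per 1e6 S. pombe counts the groups overlapped (13.7 and 12.7 in WT, 12 and 21.9 in KO). Tcstv3 held 5 and 7 counts in WT and 11 and 16 counts in KO (0.366 CPM in both WT libraries, 0.816 and 0.898 CPM in KO), with a log2 difference of 1.22 ± 0.45 and an adjusted p of 0.148. Its groups did not overlap, but it passed the filter only through the KO libraries and so had to be higher there. Its relative Tcstv1, which shares exon sequence with it, held 0 to 2 counts per library.

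The 3 copies named as pseudogenes were also higher in both KO libraries, as were 26.7% of tested genes in CPM. Zscan4-ps1 held 38 and 20 counts in WT and 134 and 96 counts in KO, the largest difference in the cluster, and rose by 2.05 ± 0.44 (SE) on the log2 scale (adjusted p = 0.0248). Zscan4-ps3, with 45 and 38 counts in WT and 107 and 90 counts in KO, rose by 1.31 ± 0.32 (adjusted p = 0.0398; 0.117 without WT replicate 2). Zscan4-ps2, with 29 and 25 counts in WT and 72 and 51 counts in KO, did not pass the test (1.26 ± 0.38, adjusted p = 0.0843). In sequence Zscan4-ps2 is 99.3% identical to Zscan4c, the closest pair of the cluster, and 51.6% of the 50-base stretches of Zscan4-ps1 are its own. The sum of all 9 copies per 1e6 S. pombe counts was 107 and 108 in WT and 220.0 and 220.2 in KO. Its log2 difference in CPM was 1.28 ± 0.27, with an adjusted p of 0.0237 in edgeR's quasi-likelihood test.

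The genes around and between the copies were nearly silent. Within 500 kb of the cluster the table lists 101 other genes, of which 78 held 0 counts in all 4 libraries and 97 held fewer than 10 in all libraries together. Among them are 25 vomeronasal receptor genes of the Vmn1r family, 20 of them at 0. The 3 that could be tested were not called by edgeR with the count filter, all 4 libraries and genotype as the only term, by DESeq2 or by limma voom, and 2 had an unadjusted p under 0.05. In edgeR 2 of the 3 were called higher with no filter, with the term for depth and without KO replicate 2, and 1, Gm45551, without WT replicate 1 (adjusted p = 0.000501). Zik1, a zinc finger gene, differed by -0.18 (adjusted p = 0.430) on the log2 scale, Gm18204 by 1.1 ± 0.42 (adjusted p = 0.160) and the unprocessed pseudogene Gm45551 by 1.25 ± 0.40 (adjusted p = 0.0958). Gm45551 shares exon sequence with the Zscan4 copies, so its reads may not be its own.

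**Figure D4:**
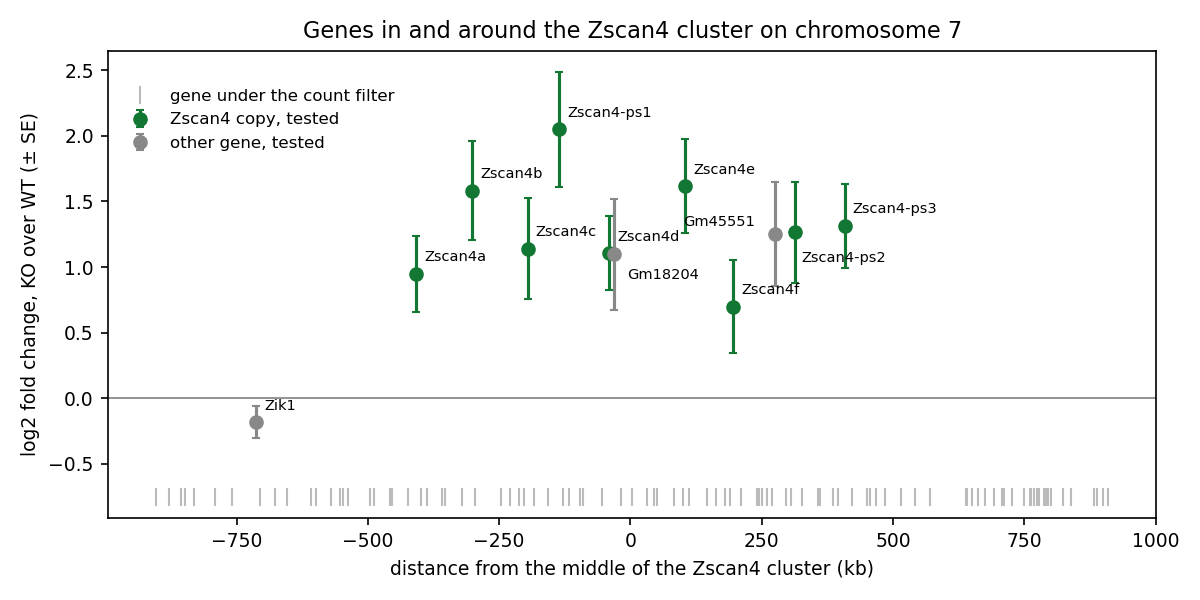
Log2 fold change (KO over WT, bars are ± SE) of tested genes by distance from the middle of the Zscan4 cluster in kb, with ticks at the foot for genes under the count filter. The 9 copies lie between 0.70 (Zscan4f) and 2.05 (Zscan4-ps1), and the tested gene furthest from the cluster, Zik1, lies at -0.18.

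Other genes of the two-cell-like state were taken from a list of 43, of which 41 are in the table and 22 passed the filter. The list includes Zscan4-ps1, Zscan4-ps2 and Zscan4-ps3, which share sequence with the summed copies. Its counts and medians are therefore not independent of those copies, and none was made without them. Shared sequence was not checked among the other genes of the list, some of which are named alike, such as Usp17la and Usp17lb. Of the 22, 6 rose, 1 fell, and the median log2 difference was 0.98, beside 0.01 over all tested genes and 4.05% of them higher and 4.02% lower in KO. Of these 22 genes, 3 passed the filter only through the KO libraries; the other 19 held the same 7 calls and had a median of 0.84. Both KO libraries were above both WT libraries in CPM for 16 of the 22 and for 13 of those 19, against 26.7% of tested genes. Beside Zscan4-ps1 and Zscan4-ps3, the genes that rose were Gm20767, Tmem92, Gm8994 and Gm5039. Gm20767, on chromosome 13 near Tcstv3, measured 3.81 and 2.61 CPM in WT and 10.2 and 6.79 CPM in KO (1.42 on the log2 scale, adjusted p = 0.0181). Tmem92, which encodes a transmembrane protein, measured 1.76 and 1.25 CPM in WT and 4.82 and 3.20 CPM in KO (1.42, adjusted p = 0.0330). Gm8994 measured 1.32 and 1.57 CPM in WT and 5.56 and 2.86 CPM in KO (1.5, adjusted p = 0.0434).

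Some of these calls rested on single libraries. Without WT replicate 2 the adjusted p was 0.122 for Tmem92 and 0.205 for Gm5039, and without KO replicate 1 it was 0.101 for Gm8994. The median log2 difference of the 22 genes was 0.98 with all libraries. Leaving out KO replicate 2 gave 1.33, and leaving out WT replicate 1 gave 1.04. It fell to 0.80 when WT replicate 2 was omitted and to 0.72 when KO replicate 1 was. The median over all tested genes ran from -6.67e-06 to 0.00895 in these fits. The number of calls with a library left out moved over all genes as well as in this list, as given below. Calcoco2, which encodes an autophagy receptor, was the gene that fell (by 0.65 on the log2 scale, adjusted p = 0.0371), with an adjusted p of 0.0667 in DESeq2 and 0.101 without WT replicate 1. Dux, listed as Duxf3, held 2 and 0 counts in WT and 3 and 1 counts in KO, too few to compare. Another 5 genes of the list, Duxbl1, Tdpoz2, Tdpoz5, Gm4340 and BC061212, were at 0 in all 4 libraries.

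Genes described as acting on the two-cell-like state were sorted into a list of activators and a list of repressors, and that sorting was not tested. The activators tested were Dppa2, Dppa4, Nelfa, Tbx3, Tet1, Tet2, Smarca5 and Usp7. Of 8 activators tested, none was higher in KO and 1, Tbx3, was lower, with a median of -0.00 on the log2 scale; without KO replicate 2 the calls were 1 higher and 2 lower. Tbx3, a T-box transcription factor of the naive ES cell state that is also known to promote Zscan4 expression, measured 107 and 125 CPM in WT and 24.6 and 45.6 CPM in KO. Its means were 116 ± 12.2 CPM (SD, n = 2) in WT and 35.1 ± 14.9 CPM (SD, n = 2) in KO, so the group that was lower in Tbx3 was the group that was higher in Zscan4. It fell by 1.71 ± 0.23 (SE) on the log2 scale (adjusted p = 0.00401). Dppa2 (0.21, adjusted p = 0.350) and Dppa4 (0.19), the paired factors upstream of Dux, did not pass the test.

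The 33 repressors tested gave 0 calls in edgeR, where the unadjusted p of 3 was under 0.05, and 1 lower call in DESeq2; the fit with the term for depth called 3 lower. Their median was -0.06, with values from -0.62 to 0.25 and 12 of the 33 above 0. Zfp42, at -0.62, and Lin28a are also among the ES cell markers. Ncl, the nucleolin that works with LINE1 RNA to silence Dux, measured 1217 and 1111 CPM in WT and 1098 and 1135 CPM in KO (-0.06 on the log2 scale, 0.00 without WT replicate 1). Rif1, a telomere and replication timing protein that silences Zscan4, measured 812 and 895 CPM in WT and 774 and 805 CPM in KO (-0.11 on the log2 scale).

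Genes of another 2 kinds bear on what ZSCAN4 is known for. None of 17 telomere genes tested was called by edgeR or DESeq2, with 2 at an unadjusted p under 0.05 and a median of -0.00; the fit with the term for depth called 2 lower. Terf1, which binds the telomere repeat, measured 409 and 447 CPM in WT and 365 and 436 CPM in KO. Another 23 SCAN domain genes were tested (symbols Zscan or Zkscan), with a median of 0.03; edgeR, DESeq2 and limma voom called 0 of them, and the unadjusted p of 2 was under 0.05 in edgeR, which called 3 higher without KO replicate 2. Zscan10, a SCAN zinc finger gene of ES cells, differed by -0.13 and Zkscan1 by 0.15 on the log2 scale, the latter being -0.09 with spike-in scaling.

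**Figure D5:**
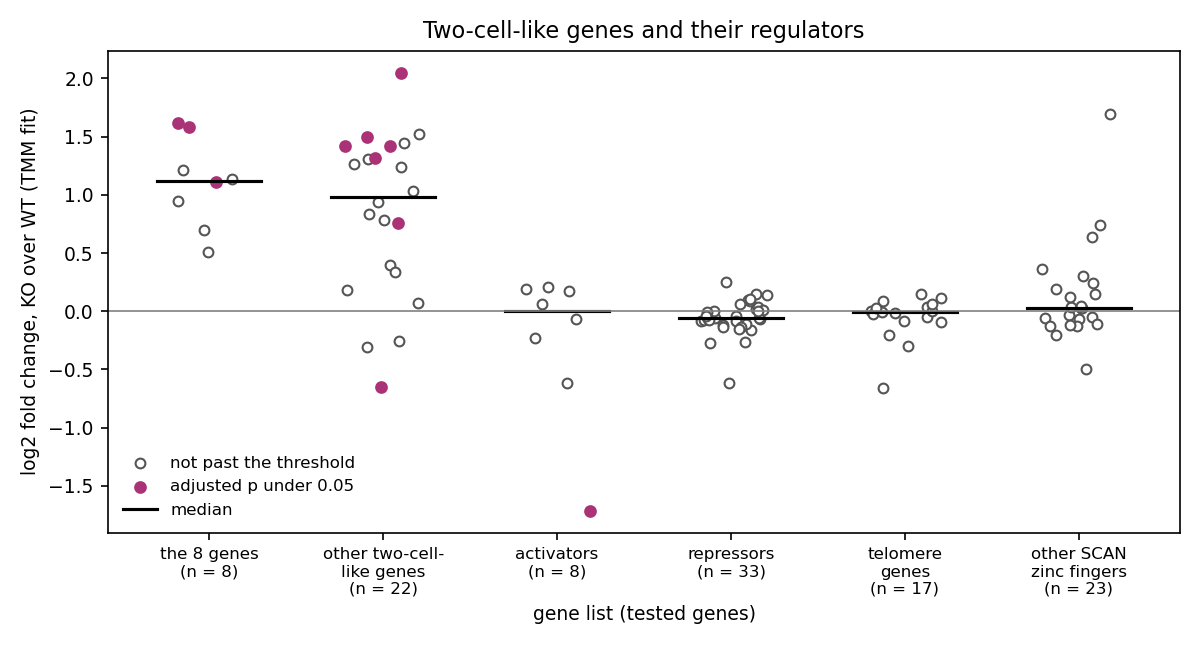
Log2 fold changes (KO over WT, edgeR) of the tested genes of each list, 1 point per gene and a bar at the median, with called genes filled. The medians of the 8 genes (1.12) and of the other two-cell-like genes (0.98) lie above 0, and those of repressors (-0.06), telomere genes (-0.00) and other SCAN genes (0.03) lie close to it. The other two-cell-like genes include Zscan4-ps1, Zscan4-ps2 and Zscan4-ps3. Tcstv3 and 3 of the other two-cell-like genes passed the filter on low counts only through the KO libraries. These had to be higher there in CPM, and without those 3 the median of the other two-cell-like genes was 0.84.

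Markers of other cell types moved between the genotypes as well. The calls below stand beside 4.05% of all tested genes higher and 4.02% lower in KO. With spike-in scaling no primitive endoderm, trophoblast, germ cell or fibroblast marker was called. Of 14 primitive endoderm markers tested, 10 rose and none fell (median 1.09), led by Sox17 (1.46 on the log2 scale), the basement membrane collagens Col4a1 (1.44) and Col4a2 (1.40) and the receptor Pdgfra (1.30). Their summed level was 773 to 892 CPM in the WT libraries and 1453 to 1922 CPM in the KO libraries. Of 11 trophoblast markers tested, 5 rose and none fell, with a median of 1.00. The log2 difference was above 0 for 8 of the 11, and the lowest was -0.43. Among the 5 that rose were Cdx2 (2.21) and the keratins Krt8 (1.83), Krt18 (1.76) and Krt7 (1.30). For Krt8, Krt18 and Krt7 both KO libraries lay above both WT libraries in CPM, as in 26.7% of tested genes. These keratins were named because they were called higher, so this order adds no support. Cdx2 is left out of this comparison because the filter on low counts fixed its order. DESeq2 called 2 of the 11 higher, as did edgeR without WT replicate 2, and edgeR without KO replicate 2 called 5 higher and 2 lower. Cdx2 passed the filter only through the KO libraries, with an adjusted p of 0.225 without WT replicate 2 and 0.136 without KO replicate 1, and Krt7 had 0.116 in DESeq2 and 0.131 without WT replicate 2. The summed trophoblast level was 136 to 150 CPM in WT and 145 to 199 CPM in KO. Of 9 germ cell markers tested, 2 fell and none rose (median 0.04, with 5 of the 9 above 0). Dazl fell by 1.38 and Sycp3 by 0.76 on the log2 scale, the latter with an adjusted p of 0.116 without WT replicate 2. The summed germ cell level was 89.5 to 92.9 CPM in WT and 82.4 to 87.8 CPM in KO. Of 10 fibroblast markers tested, 1 rose, with 423 to 456 CPM in WT and 400 to 437 CPM in KO. The 8 genes together measured 17.9 to 28.9 CPM in WT and 39.0 to 60.8 CPM in KO. Unlike Zscan4, the summed endoderm markers were higher in the deeper library of each genotype. The part of these cell types in the Zscan4 values was not tested.

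Genes outside the 9 Zscan4 copies were ranked by the likeness of their profile over the 4 libraries to that of the summed copies. Likeness was the Euclidean distance of log2 CPM centred over the libraries, among 13579 genes of at least 2 CPM on average. The copies were left out of the candidates, and the nearest of the rest were Tacr3 (0.0344), Loxl2 (0.153), Cacna1s (0.180), Gm10801 (0.189) and AI504432 (0.199). Of the copies themselves, Zscan4-ps2 (0.115) and Zscan4-ps3 (0.141) lay nearer than all of these but Tacr3, while the 6 summed copies lay at 0.276 or more and Zscan4-ps1 at 1.02. These 5 genes were picked for a profile that is itself higher in KO, so a test of them between genotypes is no independent result. Of the 5 only Gm10801 passed that test (15.6 and 9.57 CPM in WT, 33.7 and 24.1 CPM in KO, adjusted p = 0.0170). With 4 libraries, genes can share such a profile without any link.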

How the data were processed

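The authors deposited raw counts of mouse and of S. pombe genes, made with bcl2fastq 2.20.0.422, cutadapt 1.10, STAR 2.5.3 and HTSeq 0.6.1p1 on mm10, per the submitters' processing notes. The authors' deposited comparison table adds normalized signal values (counts divided by a size factor), a log2 fold change (shrunken: the table's name gives a beta prior), and p-values. Libraries were stranded, without ribosomal depletion, per the labels' protocols, while the labels name polyA RNA as the molecule. The strand setting, counted feature and rule for multi-mapping reads were not given in the sources used here. Coordinates and exon lengths come from the deposited table and GENCODE M21, in which the 8 genes have the same coordinates.

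Counts were fitted with edgeR 4.0.16 (R 4.3.3): TMM factors, filterByExpr with a minimum count of 10, which left 16789 genes, quasi-likelihood tests and Benjamini-Hochberg adjustment over all of them. Standard errors are the log2 fold change over the square root of F. Counting error covers PCR copies as if they were molecules. On simulated counts (16488 genes) the fit called 0.0430% of unchanged genes and 31.3%, 67.2% and 97.0% of genes changed by 0.5, 1 and 2. Alternatives were spike-in and RLE scaling, DESeq2 1.42.0, limma 3.58.1 voom, no filter, a term for the pair of shallower and deeper libraries, other sums and each library left out. Replicates were numbered in accession order. Members and lists were chosen with earlier results of these data known. Named were the 8 genes, up to 4 called genes of each list or its 2 most abundant, and the 5 most similar genes; others were named after their values were seen. Sequence matches used Python 3.11.15 with Biopython 1.88.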

Additional observations from a re-analysis of the deposited data

How the results depend on the processing

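The log2 difference of the summed copies stayed positive in every alternative run. It was 0.93 with spike-in scaling (adjusted p = 1.00) and 1.17 in DESeq2 (adjusted p = 0.134), both past the threshold no longer, and ranged from 0.78 to 1.53 with each library left out, called each time; such fits assume that the lone library varies like the other genotype's pair. Of the 8 genes, 0 were called higher with spike-in scaling, 5 with no filter, 5 with the depth pair term, and 2 (without WT replicate 2) to 5 with a library left out. Limma voom called 2, with an adjusted p of 0.0686 for Zscan4d. Of the other two-cell-like genes, 0, 15 and 16 were called higher under the first 3 of these, and 4 to 13 with a library left out. Over all genes the calls higher were 1, 1260 and 2214, and 379 to 1481 with a library left out; the calls lower were 16, 1200 and 2093, and 439 to 1342. The causes were not tested. With no filter more genes were tested, but calls also rose among genes that were tested with the filter. Of the 8 genes 5 were called higher with no filter and 3 with it. Of the 22 other two-cell-like genes that passed the filter, 13 were called higher with no filter and 6 with it. Spike-in scaling moved the median of all tested genes from 0.01 to -0.23 on the log2 scale and gave Zkscan1 -0.0938. Ncl ranged from -0.12 to 0.00136 and Terf1 from -0.23 to 0.0257 with a library left out, and neither was called. Per S. pombe count the difference of the sum was 0.89 to 0.97 with a library left out. No paired analysis was possible because the labels give no replicate numbers; the depth pair term is a split known from earlier results and leaves 1 residual degree of freedom. Single copies are limited by their shared sequence, Tcstv3 by its 5 to 16 counts per library, and all results by 2 libraries per genotype.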

Other observations

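The authors' deposited table, scaled by the spike-in and with shrunken fold changes, gives an adjusted p of 0.999 for each of the 8 genes. Among 29514 genes with an adjusted p in the authors' deposited table, 8 are under 0.05. Its log2 fold change (KO over WT) is 0.96 for Zscan4e, with an unadjusted p of 0.0117, and 0.84 for Zscan4b, with an unadjusted p of 0.0371. Zscan4-ps1 has 1.21 and 0.00206 in the authors' deposited table.

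Zscan5b, another SCAN zinc finger gene, named after its values were seen, measured 0.440 and 0.523 CPM in WT and 2.15 and 1.12 CPM in KO, a log2 difference of 1.70 with an adjusted p of 0.0643 in edgeR's quasi-likelihood test. It passed the filter on low counts only through the KO libraries and so had to be higher there. Arg2, an arginase gene of the two-cell-like list, differed by 1.03 (adjusted p = 0.0577) and Usp17le, of a deubiquitinase family, by 1.24 (adjusted p = 0.101), and neither passed the test.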
